A study of Mus musculus with 8 samples.

Results

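Smooth muscle cells sorted from mouse lung were compared with those sorted from mouse intestine, across every gene of the deposited table. The comparison takes the 2 lung and the 3 intestine libraries, 5 of the 8 libraries of the study, and leaves out its 3 bladder libraries. All 5 libraries carry the same labels apart from the organ: the cell type is given as non-vascular smooth muscle, the genotype as Cspg4-Dre/Acta2-CreERT/R26-GFP and the treatment as tamoxifen. On 3 days the mice had received tamoxifen by intraperitoneal injection, with 0.75 mg for each 10 g of weight. Dre and Cre are DNA recombinases, Cspg4 and Acta2 are the genes whose control regions drive them here, tamoxifen switches on the CreERT form, and R26-GFP is a green fluorescent reporter. Cspg4 is read in pericytes and many smooth muscle cells, and Acta2 in smooth muscle, pericytes and activated fibroblasts, so neither driver marks visceral muscle alone. The fluorescence gate, the age and sex of the mice and the number of mice behind a library are not given in the labels. Whether libraries came from separate mice is not given either, so each p-value measures the spread among libraries only, and that spread may be technical. In such bulk libraries, fewer cells of a type and less RNA per cell cannot be told apart.

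Visceral smooth muscle lines the airways and the gut wall. It contracts when calcium drives myosin light chain kinase and relaxes through cGMP and cAMP, and its actin, myosin and calponin genes are switched on by serum response factor (SRF) with its partner myocardin, at a short DNA element called the CArG box. Airway muscle grows from lung mesenchyme marked by Tbx4 and Tbx5 under hedgehog, WNT and FGF signals. Muscle of the gut grows from splanchnic mesenchyme marked by Nkx2-3, Barx1 and Hand genes, and works in a network with enteric neurons and the pacemaker interstitial cells of Cajal.

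Values are normalized read counts, given in the order lung 1 and 2, then intestine 1, 2 and 3. Differences are lung minus intestine on the scale log2(value + 1), with their standard error (SE), from limma, and a gene is called higher or lower in lung where its p, adjusted by Benjamini-Hochberg over all genes tested, is under 0.05. The libraries held 12.03 to 13.62 M reconstructed reads. Genes above 0 numbered 19573 and 19396 in lung and 20196 to 20357 in intestine. Log2 values correlated across genes at 0.967 to 0.973 within a tissue and at 0.768 to 0.784 between the tissues, where genes are not independent replicates. Among 17439 genes tested, lung was higher in 2326 (13.3%) and lower in 3984 (22.8%), and 11129 were not called, with a median difference of -0.04. A difference of at least 1 was held by 1039 of the higher and 3097 of the lower genes, and one of at least 3 by 276 and 1645. The balance depended on the scaling: higher genes made up 36.9% of calls with the deposited scaling and 41.8% with equal totals, with a median of 0.01. Their share was 57% after quantile normalization, which moved the median of all genes to 0.16. It was 50.3% with the deposited scaling undone, a setting that leaves depth uncorrected. No gene called in the comparison was called in the opposite direction under any of these. Both tissues shared much of their expression: of 9241 genes at 200 or more in both, 3036 had a 95% interval of the difference within 0.5 of 0.

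**Figure D1:**
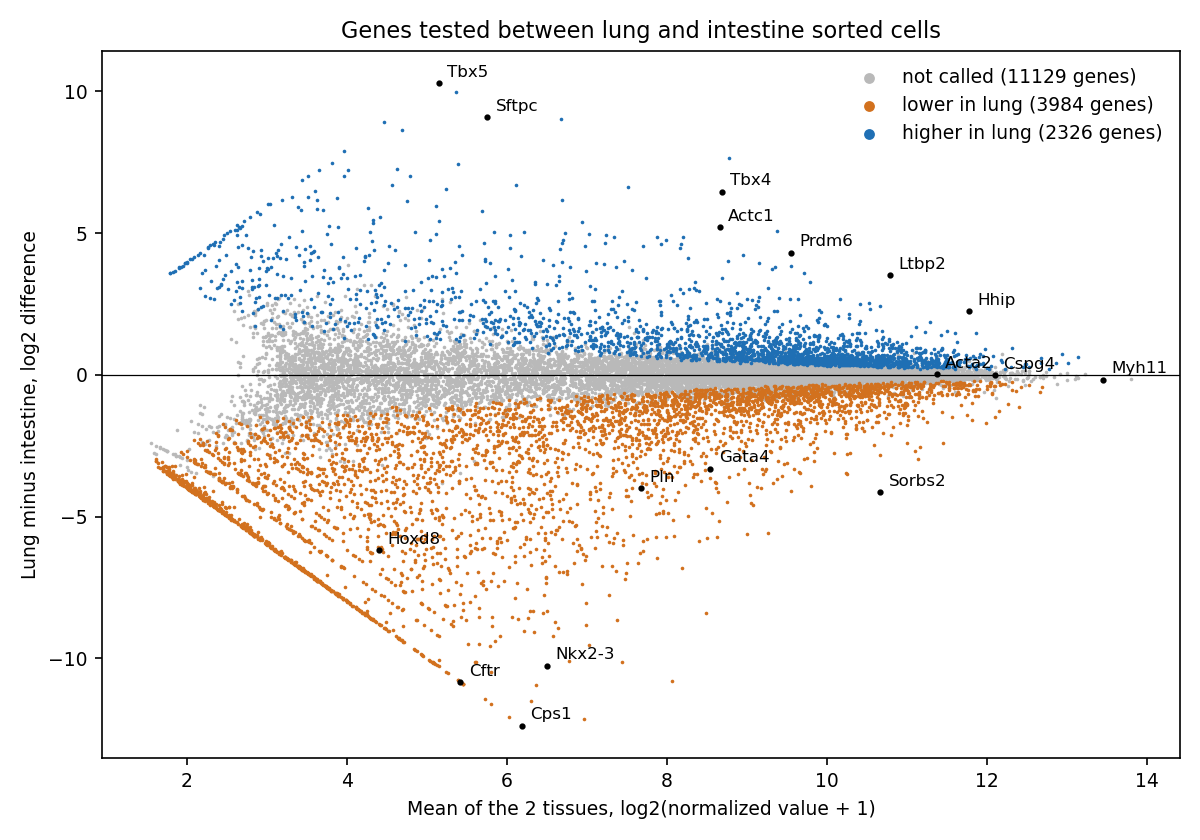
Each point is 1 of 17439 genes tested, with the mean of the tissues on the x axis as log2(normalized value + 1) and lung minus intestine on the y axis as the fitted log2 difference, coloured by call. The straight lower edge on the left is formed by genes at 0 in both lung libraries, whose fitted difference depends on the 1 added before the log, and the driver genes Acta2 and Cspg4 lie at 0.02 and -0.00.

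The lung libraries differed more from each other than the intestine libraries did. Among 10691 genes with a mean of at least 100 in both tissues, 3.78% were at least 1 apart on the log2 scale between lung 1 and lung 2, against 0.187% to 0.402% between intestine libraries. The difference followed the summed exon length of a gene: the median of lung 1 minus lung 2 was -0.21 in the shortest 20% of genes and 0.27 in the longest 20%, with a Spearman rho of 0.44 across genes, given as a description. Between intestine libraries rho was -0.19 to 0.29. Lung minus intestine moved the other way, with medians of 0.17 and -0.13 in the same groups. The part of exon length in single results was not tested. Counts of a list below are to be read beside the 13.3% higher and 22.8% lower of all genes tested. Counts of a list without 1 library, or with another scaling, are given where they differ from the full count by more than 1.5 times.

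Neither gene whose control region drives a recombinase was called between the organs. Acta2, smooth muscle actin (mm39 chromosome 19, 34218490 to 34232990), was read at 2719 and 2630 in lung and at 2876, 2454 and 2600 in intestine. Its libraries overlapped, and the difference was 0.02 (SE 0.09, 95% interval -0.19 to 0.23; limma adjusted p = 0.879). Cspg4, the NG2 proteoglycan (chromosome 9, 56772317 to 56807154), stood at 4757 and 4045 against 4370, 4617 and 4220, also overlapping (-0.00, SE 0.09, interval -0.20 to 0.20). The contractile myosin gene Myh11 (chromosome 16, 14012399 to 14109236) stood at 10795 and 10378 in lung and 12038, 11371 and 12454 in intestine. That small difference of -0.17 (SE 0.05; limma adjusted p = 0.035) was -0.20 without lung 1 and -0.15 without lung 2. It was not called without intestine 1 (adjusted p = 0.127) or without intestine 3 (0.134). The scaling mattered as well: it was -0.12 with equal totals (0.0878) and -0.06 with the deposited scaling undone (0.326). It also lost its call without the intensity trend (0.319) and with the replicate block (0.222).

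Promoters are shown first, because the CArG box is the element through which SRF acts on muscle genes, and these genes hold it but had different calls. They were chosen after their values were seen, and Rergl is not a member of the muscle lists. The 4 windows below are the 250 bases before the RefSeq start of each gene, build GRCm38.p6, 5′ to 3′ on the gene's strand. Capitals mark every exact match to the CArG consensus CCWWWWWWGG, where W is A or T, and near matches are not marked. Actc1 (chr2:114052876-114053125, minus strand) was far higher in lung, Srf itself (chr17:46556163-46556412, minus strand) was higher by less, Myl9 (chr2:156775214-156775463, plus strand) was not called, and Rergl (chr6:139501910-139502159, minus strand) was read in intestine alone.
Actc1: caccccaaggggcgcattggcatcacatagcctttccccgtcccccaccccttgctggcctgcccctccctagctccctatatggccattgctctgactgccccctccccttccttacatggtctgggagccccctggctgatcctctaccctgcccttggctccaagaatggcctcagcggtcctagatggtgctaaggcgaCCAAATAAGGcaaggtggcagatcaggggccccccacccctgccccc
Srf: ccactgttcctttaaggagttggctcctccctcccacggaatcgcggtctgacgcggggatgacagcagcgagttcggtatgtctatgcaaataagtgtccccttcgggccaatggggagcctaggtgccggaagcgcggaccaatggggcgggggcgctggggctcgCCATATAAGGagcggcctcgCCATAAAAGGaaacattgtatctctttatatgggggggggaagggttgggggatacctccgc
Myl9: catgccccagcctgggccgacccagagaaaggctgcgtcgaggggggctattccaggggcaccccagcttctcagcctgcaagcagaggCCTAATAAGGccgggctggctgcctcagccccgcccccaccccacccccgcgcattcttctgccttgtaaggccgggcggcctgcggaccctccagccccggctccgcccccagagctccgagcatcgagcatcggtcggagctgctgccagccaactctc
Rergl: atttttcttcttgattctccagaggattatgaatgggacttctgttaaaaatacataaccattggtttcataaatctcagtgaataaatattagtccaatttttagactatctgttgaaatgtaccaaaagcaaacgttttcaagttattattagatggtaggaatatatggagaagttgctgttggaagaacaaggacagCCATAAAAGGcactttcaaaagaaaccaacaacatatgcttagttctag

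The marked Actc1 box ends 38 bases before the start, that of Rergl 40, that of Myl9 152, and the Srf boxes 73 and 53. The CArG box was searched only by that exact consensus, which reads the same on both strands. Boxes that depart from it were not counted. An exact match was held by 439 of 27025 genes with such a window in the RefSeq table (1.62%). Among the 12535 tested genes that matched by symbol, 189 held it (1.51%). Among genes called higher the share was 1.76%, among those called lower 1.88%, and among those not called 1.32%. Of 81 tested genes of the muscle lists with a window, 12 held it (14.8%): Actc1, Srf, Myl6 and Nebl were higher in lung, and Acta1, Cnn2, Dmd, Fhl1, Fhl2, Ldb3, Myl9 and Vcl were not called. A match is a description of these letters and not a measured binding site.

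Actc1, cardiac alpha actin (mm39 chromosome 2, 113877763 to 113884029), was read at 2317 and 2342 in lung and at 55, 38 and 115 in intestine. It was 5.20 higher (SE 0.42; limma adjusted p = 9.24e-05). Srf was at 1205 and 1501 against 942, 694 and 851 (0.71, SE 0.17; adjusted p = 0.014), without overlap, but not called without lung 2 (0.55; adjusted p = 0.0887), without intestine 2 (0.0543) or without intestine 3 (0.058). Myl9, the regulatory myosin light chain, was at 1892 and 1988 against 2091, 1955 and 2168, overlapping (-0.09, 95% interval -0.29 to 0.11). Rergl, a RAS-like GTPase gene of mural cells, was at 0 in both lung libraries and at 929, 940 and 921 in intestine, at least 366.9-fold lower in lung against a floor of 3 reads per library.

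Many genes of the core contractile apparatus were read at close levels in both organs, while other muscle genes differed, some by large factors. In reconstructed reads per exon base, the largest tissue mean of any tested gene with a known exon length was 2.44. A mean of at least 1 was held by 402 genes, whose median difference was -0.00. Acta2 had 1.45 in lung and 1.32 in intestine, and Myh11 1.65 and 1.72. The part of an upper limit for abundant genes in the close levels was not tested. Of 101 muscle genes tested, lung was higher in 31 and lower in 12, beside 13.3% and 22.8% of all genes tested. The other 58 were not called, and the median difference was 0.07 against -0.04 over all genes. Of the 92 at 200 or more in both tissues, 39 had a 95% interval within 0.5 of 0, as had 3036 of 9241 among all genes. Smoothelin (Smtn) was at 3971 and 4048 in lung and 4011, 3746 and 4040 in intestine (0.03, SE 0.06). Desmin (Des), the muscle intermediate filament, was at 3606 and 3775 against 3896, 3628 and 3958 (-0.05, SE 0.07). Caveolin 1 (Cav1), the coat protein of caveolae, was at 4082 and 4193 against 4085, 3695 and 4102 (0.06, SE 0.07). In each of these 3 genes the libraries of the tissues overlapped. The same held for enteric actin Actg2 (-0.02, interval -0.21 to 0.17) and calponin Cnn1 (0.07, interval -0.12 to 0.25), which are often taken as visceral muscle genes. Caldesmon (Cald1) and myosin light chain kinase (Mylk) lay slightly above the intestine range, with differences of 0.12 and 0.07 that did not pass the test.

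The 16 thin filament genes held 5 higher (10 with the deposited scaling undone) and 0 lower, with a median of 0.14. Beside Actc1 these were Actn1, which crosslinks actin (3602 and 4421 against 2442, 2322 and 2640; 0.70, SE 0.11), the actin nucleators Lmod1 (0.45, SE 0.09) and Lmod2, and Tagln, also called SM22. Tagln stood at 475 and 485 against 346, 279 and 318 (0.61, SE 0.16; limma adjusted p = 0.0233), and lost its call without lung 2 (adjusted p = 0.0579), intestine 2 (0.0893) or intestine 3 (0.0783). In the myosin list 5 of 20 were higher and 3 lower (all genes: 13.3% and 22.8%), and 8 and 1 with the deposited scaling undone. Higher calls were 3 without lung 1 and 2 without intestine 2 or 3, and lower calls were 5 without lung 1 and 1 without lung 2, intestine 1 or 3. Mylk4, a myosin light chain kinase family gene, was at 494 and 320 in lung and 34, 4 and 35 in intestine (4.43, SE 0.85; limma adjusted p = 0.00592, and 0.0536 without lung 1). Pde5a, the cGMP phosphodiesterase blocked by sildenafil, was at 1906 and 1616 against 1199, 1147 and 1101 (0.61, SE 0.11). Ppp1r12c, a subunit of myosin phosphatase, was lower, at 3716 and 3750 against 4899, 4603 and 4826 (-0.35, SE 0.06).

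The dystrophin complex, which ties the muscle skeleton to the matrix, differed in both directions. Sgcd, delta-sarcoglycan, was at 833 and 602 in lung against 171, 195 and 178 (1.96, SE 0.20). Alpha-sarcoglycan (Sgca) overlapped, with a difference of -0.01 (interval -0.38 to 0.37). Cav3, the caveolin of striated muscle, was at 501 and 518 against 142, 137 and 133 (1.88, SE 0.17). Utrophin (Utrn), a homologue of dystrophin, was lower, at 1520 and 1316 against 3016, 2778 and 2725 (95% interval of the difference -1.23 to -0.78). In the whole list 7 of 20 were higher and 2 lower. Lower calls were 5 without lung 1 and 1 without any 1 intestine library.

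Adhesion plaque and filament genes split as well, with 7 of 26 higher and 3 lower, and 4 higher without intestine 3. Itga5, the fibronectin receptor subunit, was at 5815 and 6536 in lung and 2231, 2268 and 2240 in intestine (1.46, SE 0.07; limma adjusted p = 1.06e-05). Itga9, a subunit for tenascin and osteopontin, was at 5198 and 3755 against 1548, 1916 and 1588 (1.40, SE 0.16). Nexn, the actin-binding nexilin, was at 1819 and 1840 against 886, 737 and 844 (1.16, SE 0.11). Sorbs2, an adaptor of adhesion plaques and Z discs, went the other way at 579 and 232 against 6765, 6231 and 6540 (-4.15, SE 0.33), and no other muscle gene was lower by as much. Synm, the filament protein synemin, was at 896 and 681 against 1484, 1676 and 1662 (-1.04, SE 0.14). Flna, Itgb1 and Palld had intervals within 0.5 of 0.

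Regulators of the muscle programme counted 7 higher and 4 lower of 19. Higher calls were 4 without lung 2 or intestine 1 and 3 without intestine 2 or 3. Prdm6, a repressor of smooth muscle gene activity, was at 3717 and 2832 in lung and 106, 241 and 169 in intestine (4.31, SE 0.33; limma adjusted p = 6.6e-05). Klf5 was lower at 206 and 461 against 2531, 2448 and 2586 (-3.03, SE 0.30). Klf4, a factor that opposes myocardin, was at 616 and 1096 against 2415, 2400 and 2557 (-1.58, SE 0.22). Both Klf genes are also strongly read in gut epithelium, whose markers were far higher in the intestine libraries, as given below, and the part of those cells in the Klf values was not tested. Mef2c was at 1888 and 1168 against 4153, 3366 and 3206 (-1.26, SE 0.20). Myocd, which encodes myocardin, overlapped at 690 and 302 against 775, 670 and 620 (-0.58, interval -1.34 to 0.17).

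**Figure D2:**
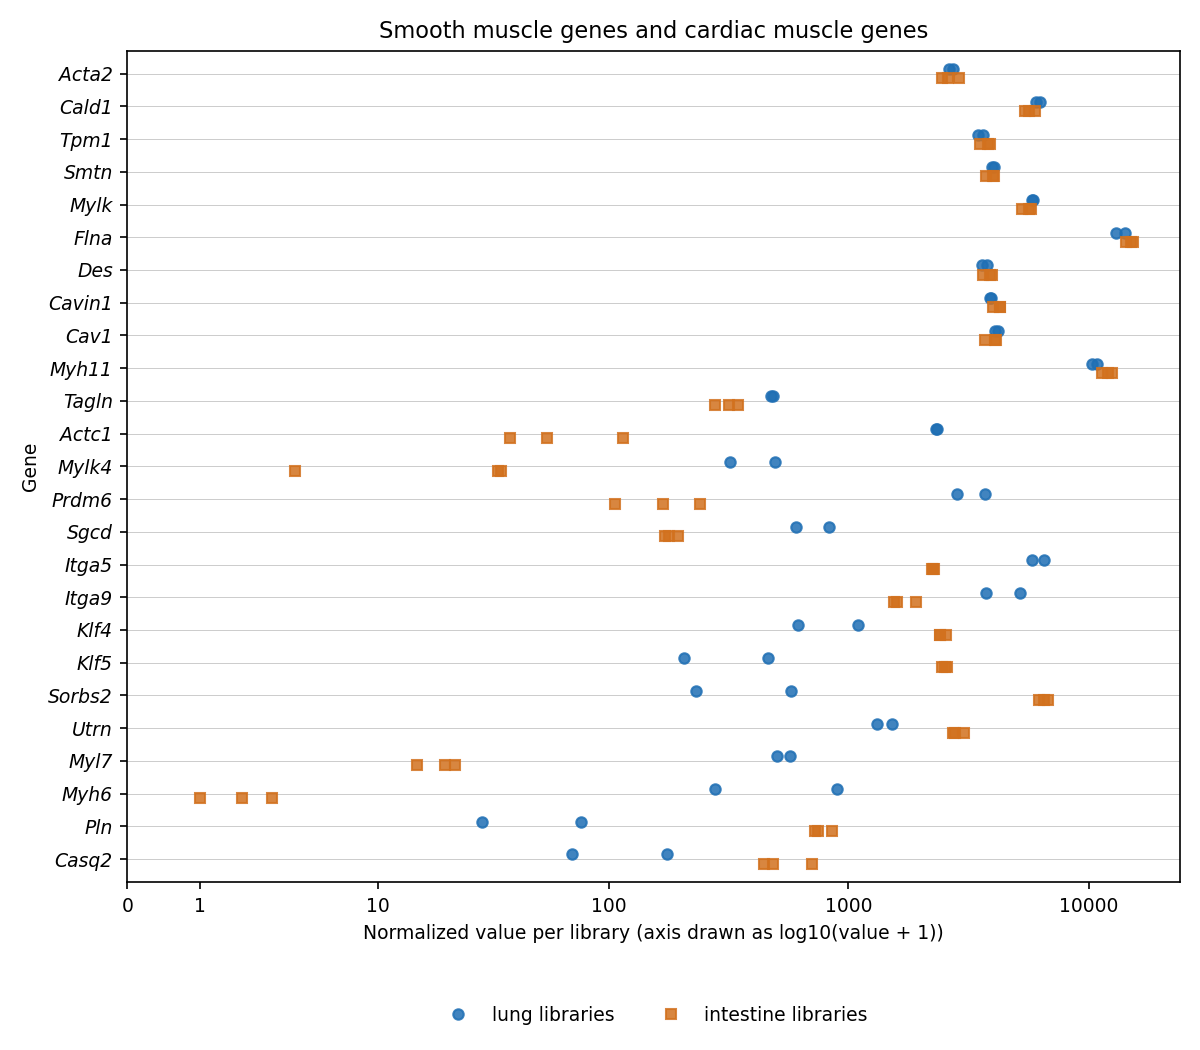
Normalized values of 25 muscle genes in each of the 2 lung libraries (circles) and 3 intestine libraries (squares), on an axis drawn as log10(value + 1). Acta2 to Cav1 have libraries close together, Actc1, Prdm6 and the atrial genes Myl7 and Myh6 are higher in lung, and Sorbs2, Klf5 and Pln are lower.

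Genes of striated muscle differed in both directions. In the cardiac and skeletal muscle list, 28 tested genes held 16 higher and 7 lower (4 lower without intestine 2 or with quantile normalization), with a median of 2.15 (2.08 with genes at 0 set to their bound). Myh6, the atrial myosin heavy chain, was at 897 and 279 in lung and 1, 3 and 2 in intestine (7.44, SE 0.60; limma adjusted p = 8.85e-05). Myl7, the atrial light chain, was at 569 and 505 against 20, 22 and 15 (4.76, SE 0.29). Tnni3, cardiac troponin I, was at 430 and 280 against 4, 1 and 4 (6.56, SE 0.54). Tnnt2, cardiac troponin T, was at 1318 and 1268 against 239, 250 and 246 (2.40, SE 0.13), so that it was present in both organs. The lung libraries lay above the intestine libraries in each of these 4 genes, and for Myh6 the naming rule required this. Heart muscle extends into the sleeves of pulmonary veins in mice, and the label names the cells as smooth muscle; the share of such cells was not tested. Summed over 32 listed genes in the table, cardiac and skeletal muscle genes made up 630.5 and 424.8 ppm of the summed values in lung and 481 to 578.6 in intestine, so the sums overlapped. Pln, phospholamban, which restrains the calcium pump, was lower in lung at 76 and 29 against 856, 749 and 725 (-4.01, SE 0.37). Casq2, the cardiac calcium store protein, was also lower at 175 and 70 against 704, 485 and 446 (-2.26, SE 0.39), as was Xirp1 (-1.84, SE 0.30). Lung 1 exceeded lung 2 in 22 of the 28 genes, against 7815 of all 17439.

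Transcription factors of position and organ identity differed by large factors in both directions. The 62 tested factors of organ mesenchyme held 23 higher, where 13.3% of all genes were, and 22 lower, where 22.8% were. Tbx5, a T-box factor of heart, forelimb and lung (chromosome 5, 119970733 to 120023284), was at 1309 and 1209 in lung and 0 in all 3 intestine libraries, at least 458.4-fold higher. Tbx4 (chromosome 11, 85777248 to 85806923), which acts with Tbx5 in lung mesenchyme, was at 3728 and 3664 against 73, 35 and 27 (6.46, SE 0.39; limma adjusted p = 2.14e-05). Tbx18, known from epicardium and ureter mesenchyme, was at 211 and 102 against 0 in each, at least 56.98-fold higher. These 3 genes were at 0 or low in every intestine library. Smaller differences in the same direction were seen for Osr1 (2397 and 2357 against 802, 909 and 869; 1.47, SE 0.10), Foxf2 (1.43, SE 0.14), Prrx1 (2.34, SE 0.19), Gata5 (1.71, SE 0.15) and Gata6 (1.19, SE 0.14).

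Intestine libraries held their own set. Nkx2-3, which patterns gut and spleen mesenchyme (chromosome 19, 43600764 to 43604331), was at 0 and 4 in lung and 2808, 2644 and 2799 in intestine (-10.26, SE 0.60; limma adjusted p = 1.81e-05). Gata4 was at 121 and 114 against 1153, 1226 and 1150 (-3.31, SE 0.14), opposite to Gata5 and Gata6. Isx, a homeobox gene of gut epithelium, was at 0 in both lung libraries and 341, 412 and 384 in intestine, at least 149.5-fold lower. Nkx3-2, which shapes stomach and spleen mesenchyme, was at 0 in lung against 202, 155 and 121, at least 62.85-fold lower. Pitx1, a hindlimb factor, was at 2 and 4 against 320, 327 and 262 (-6.29, SE 0.35). Hand1 was at 6 and 0 against 142, 214 and 219 (-6.16, SE 0.77), and Hand2, which enteric neurons also read, at 4 and 20 against 370, 380 and 372 (-5.19, SE 0.56). Not every factor of visceral mesenchyme differed: Foxf1 (-0.17, interval -0.34 to 0.00), Tbx2 (0.27, interval 0.05 to 0.49), Tbx3 and Foxc1 did not pass the test.

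HOX genes, which record position along the body axis, were split by cluster, a pattern noticed after the values were seen. In groups 1 to 5, 5 of 11 tested genes were higher and 2 lower, and in groups 6 to 8, 3 of 6 were higher and 2 lower. All 8 higher genes were HOXA or HOXB members, and all 5 lower genes, counting Hoxd9, were HOXC or HOXD members. Hoxb5 was at 1055 and 1093 in lung and 463, 545 and 534 in intestine (1.07, SE 0.13; limma adjusted p = 0.000711). Hoxb6 was at 745 and 872 against 191, 203 and 189 (2.05, SE 0.16). Hoxa7 was at 329 and 355 against 136, 123 and 145 (1.34, SE 0.19). These values are higher but within the same order of size, whereas the HOXC and HOXD genes were near 0 in lung. Hoxc4 was at 7 and 22 against 253, 238 and 238 (-4.17, SE 0.45), and Hoxc5, its neighbour, at 8 and 5 against 189, 191 and 189 (-4.70, SE 0.32). Hoxc6 was at 2 and 3 against 75, 149 and 99 (-4.91, SE 0.43). Hoxd8 was at 2 and 1 against 176, 172 and 187 (-6.19, SE 0.36), and Hoxd9 at 0 in lung against 41, 109 and 91, at least 31.69-fold lower. Of 15 genes of groups 9 to 13 in the table, only Hoxd9 passed the filter on low values, 10 were at 0 in both lung libraries and 9 at 0 in all intestine libraries. The higher calls in groups 1 to 5 were 2 without lung 2 or intestine 2 and 3 without intestine 1 or 3, but 9 with quantile normalization, and Hoxa3 and Hoxb4 lost theirs without lung 2 (adjusted p = 0.0717 and 0.0618). With any 1 library left out, the lower calls in the 3 groups stayed at 2, 2 and 1.

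**Figure D3:**
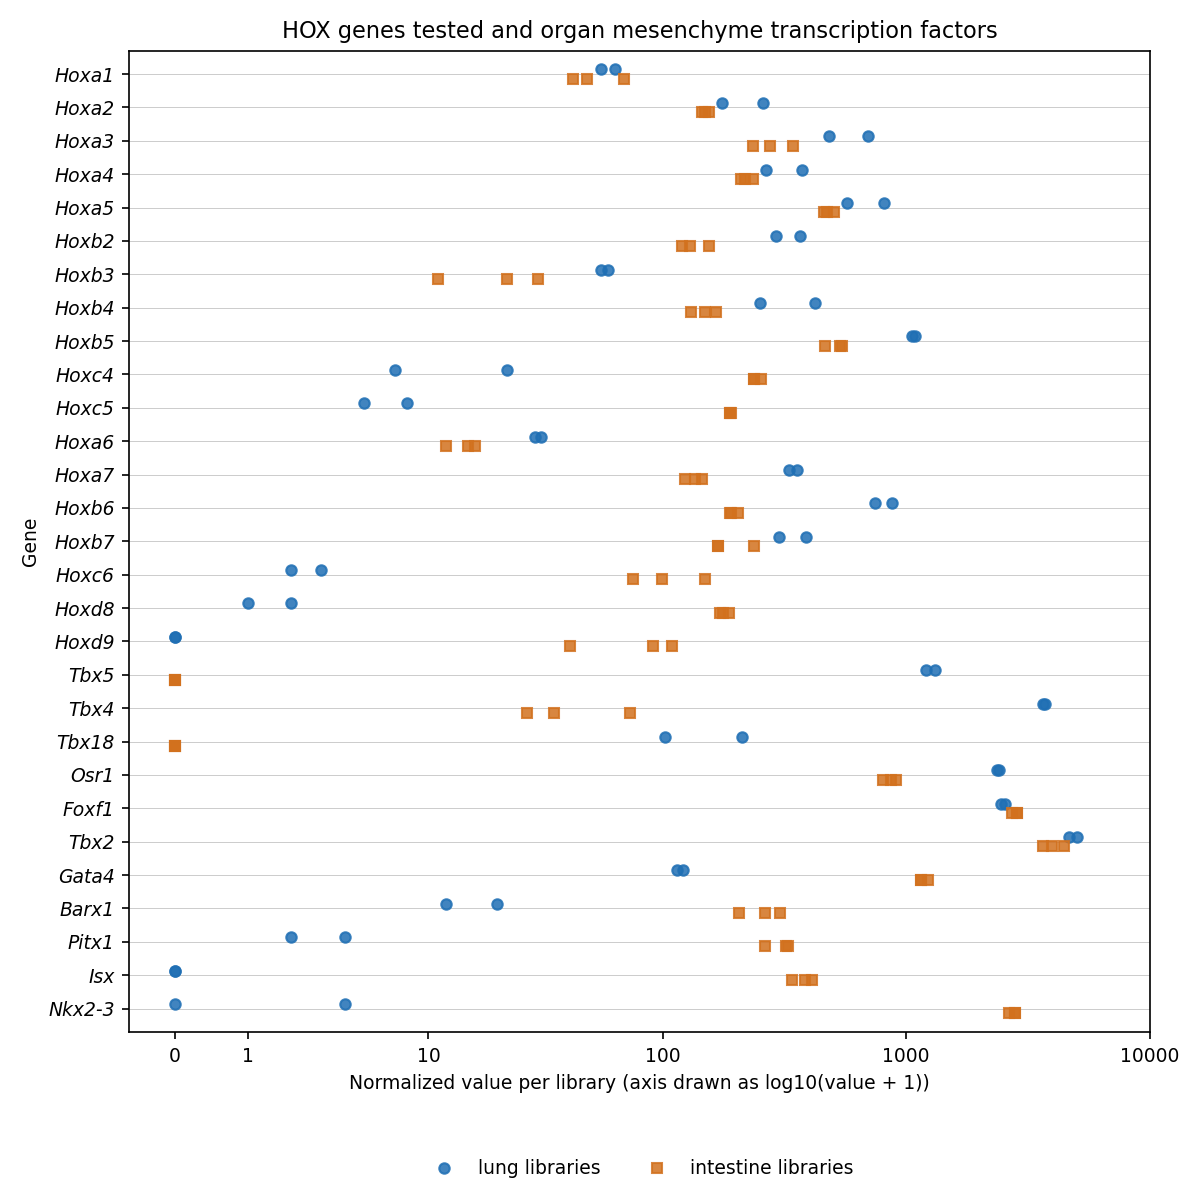
Normalized values of the 18 tested HOX genes and 11 transcription factors in each lung library (circles) and intestine library (squares), on an axis drawn as log10(value + 1). Hoxc4, Hoxc5, Hoxc6, Hoxd8, Hoxd9 and Nkx2-3 lie near 0 in lung, Tbx5 and Tbx18 lie at 0 in intestine, and Foxf1 and Tbx2 are close.

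Ion channels, which set the excitability of the muscle, held 46 lower and 18 higher of 109, where 22.8% and 13.3% of all genes tested were. Of 40 potassium channel genes 6 were higher (10 with quantile normalization) and 16 lower, with a median of -0.56. Kcnk3, the acid-sensitive TASK-1 leak channel (chromosome 5, 30745514 to 30782615), was at 3319 and 3780 in lung and 599, 547 and 697 in intestine (2.53, SE 0.13; limma adjusted p = 1.24e-05). Kcns3 was at 1037 and 796 against 265, 315 and 364 (1.54, SE 0.19). Kcnj8, the pore of the vascular ATP-sensitive channel, was at 2065 and 1915 against 1062, 1101 and 1250 (0.81, SE 0.11). Each of these lay above every intestine library. Kcnq1 (chromosome 7, 142660099 to 142980779) was at 52 and 55 against 1564, 1701 and 1912 (-4.98, SE 0.15; adjusted p = 1.66e-06), and its partner subunit Kcne3 was at 31 and 57 against 1307, 1178 and 1318 (-4.88, SE 0.26). Kcnn3, the SK3 channel that neurotransmitters open in gut interstitial cells, was at 47 and 36 against 1076, 1502 and 1233 (-4.90, SE 0.21). Kcnq1 and Kcne3 are also read in gut epithelium. The large-conductance channel Kcnma1 overlapped (-0.60, interval -1.47 to 0.28), whereas its beta subunit Kcnmb1 was higher at 2734 and 2363 against 1738, 1270 and 1444 (0.79, SE 0.14).

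Calcium handling genes counted 8 higher (5 without intestine 3) and 16 lower of 44, with a median of -0.31. Cacna1c, the pore of the L-type channel that brings in calcium for contraction, was at 1055 and 831 in lung and 338, 373 and 380 in intestine (1.36, SE 0.16; limma adjusted p = 0.000535). Its auxiliary gene Cacna2d3 was at 533 and 490 against 17, 17 and 25 (4.65, SE 0.30). Casq1, the skeletal form of calsequestrin, was at 1291 and 1246 against 196, 175 and 151 (2.87, SE 0.17), opposite to Casq2. The T-type channel Cacna1h went down, at 91 and 92 against 1056, 1094 and 1197 (-3.59, SE 0.15). Trpc4, which carries muscarinic current in gut muscle, was at 6 and 8 against 108, 136 and 124 (-3.96, SE 0.33). Trpc6 was not called (0.60, interval -0.16 to 1.35), although its lung libraries lay above the intestine ones. Atp2a2, the main calcium pump of the store, was at 6507 and 4959 against 7774, 7478 and 7728 (-0.43, SE 0.11).

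Among chloride and other channels and connexins 4 of 25 were higher (2 without lung 2) and 14 lower (9 without intestine 2). Connexin 43 (Gja1) was at 3563 and 2465 against 1608, 1763 and 1794 (0.78, SE 0.15). Cftr, the epithelial chloride channel mutated in cystic fibrosis, was at 0 in both lung libraries and 1857, 1878 and 1765 in intestine, at least 723.2-fold lower. Scn4b, a sodium channel subunit, was at 0 against 845, 677 and 551, at least 272.6-fold lower. Ano1, the calcium-activated chloride channel of interstitial cells of Cajal and of some smooth muscle, was at 1682 and 865 against 3570, 3076 and 2571 (-1.34, SE 0.27; limma adjusted p = 0.00744, and 0.0517 without intestine 2).

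Of 76 receptors for agents that contract or relax muscle, 38 were lower in lung and 16 higher, with a median of -0.96 against -0.04 over all genes. Against that direction, the noradrenaline receptor Adra1d was at 676 and 681 in lung and 48, 56 and 50 in intestine (3.70, SE 0.21; limma adjusted p = 1.67e-05). Ptger2, the relaxing prostaglandin E2 receptor, was at 884 and 895 against 101, 93 and 130 (3.04, SE 0.21). Htr2a, a contractile serotonin receptor, was at 556 and 305 against 35, 96 and 66 (2.74, SE 0.46), and Tbxa2r, the thromboxane receptor, at 1489 and 1403 against 803, 693 and 908 (0.86, SE 0.14). Npr3, which clears natriuretic peptides, was at 552 and 609 against 134, 90 and 69 (2.61, SE 0.30). Other adrenoceptors were lower: Adra2a stood at 32 and 40 against 659, 651 and 665 (-4.16, SE 0.19), and Adra1a at 145 and 47 against 774, 539 and 493 (-2.82, SE 0.45). Vipr2, the receptor through which the enteric transmitter VIP relaxes gut muscle, was at 82 and 33 against 1038, 1027 and 1029 (-4.28, SE 0.35). The PACAP receptor Adcyap1r1 was at 108 and 78 against 1034, 1442 and 1288 (-3.74, SE 0.21). Ntsr1, the neurotensin receptor, was at 0 in lung against 122, 173 and 157, at least 59.43-fold lower. Of the muscarinic receptors through which acetylcholine contracts both organs, Chrm3 was at 6 and 9 against 86, 113 and 55 (-3.30, SE 0.43), and Chrm2 was not called at 349 and 127 against 111, 124 and 132 (0.78, SE 0.41). The endothelin receptor Ednra, at 3571 and 2802 against 3188, 2932 and 2886, overlapped (0.08, interval -0.19 to 0.34).

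In the nitric oxide, cGMP and cAMP list 8 of 37 were higher and 14 lower. Higher calls were 4 without intestine 2 and 5 without intestine 1 or 3, and lower calls were 9 without intestine 2. Adcy2, a cAMP-making cyclase, was at 1738 and 1636 in lung and 388, 396 and 376 in intestine (2.12, SE 0.12; limma adjusted p = 1.42e-05). Rgs2, which damps contractile G protein signals, was at 2929 and 2749 against 1375, 1330 and 1352 (1.07, SE 0.08). Rgs5, a gene of pericytes and vascular muscle, was lower at 822 and 431 against 4420, 4081 and 4107 (-2.82, SE 0.24). Gucy1a1, a subunit of the nitric oxide receptor, was at 4809 and 2631 against 5449, 5012 and 4902 and was not called (-0.52, adjusted p = 0.105).

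Several secreted regulators of WNT, hedgehog, BMP and FGF signals were many times higher in lung. Hhip, which binds hedgehog ligands and marks airway muscle and nearby mesenchyme (chromosome 8, 80692480 to 80784635), was at 8879 and 6522 in lung and 1312, 1799 and 1688 in intestine (2.26, SE 0.17; limma adjusted p = 6.6e-05). Scube3, a secreted partner of hedgehog and BMP receptors, was at 1870 and 1051 against 70, 55 and 45 (4.63, SE 0.31). The receptor Ptch1, itself a hedgehog target, was at 755 and 644 against 878, 1086 and 935 (-0.46, SE 0.14), and the target Gli1 overlapped (0.13, interval -0.32 to 0.58). The hedgehog list as a whole had 5 higher and 6 lower of 18, with 3 higher without lung 1 or any 1 intestine library.

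Of 41 WNT pathway genes 9 were higher and 12 lower (all genes: 13.3% and 22.8%). Lgr6, a receptor for R-spondins and a marker of airway smooth muscle (chromosome 1, 134911039 to 135033014), was at 4606 and 3124 in lung and 93, 154 and 94 in intestine (5.09, SE 0.28; limma adjusted p = 1.38e-05). The ligand Wnt11 was at 1644 and 2151 against 293, 302 and 283 (2.68, SE 0.15), and Wnt5a at 2474 and 2520 against 568, 883 and 746 (1.79, SE 0.18). R-spondins themselves were lower: Rspo3 was at 90 and 165 against 358, 316 and 419 (-1.56, SE 0.29), and Rspo2 at 7 and 0 against 150, 122 and 127 (-5.56, SE 0.81). Lgr5, the relative of Lgr6, overlapped (-0.01, interval -0.71 to 0.69). Axin2, a common target of WNT signalling, was at 209 and 308 against 379, 437 and 420 (-0.69, SE 0.21).

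Every one of the 10 tested secreted WNT antagonists was called, 4 higher and 6 lower. Sost, which encodes sclerostin and is best known from bone, was at 1938 and 1374 in lung and 1, 15 and 0 in intestine (9.01, SE 1.06; limma adjusted p = 0.000605). Sfrp2 was at 1811 and 1238 against 96, 30 and 43 (4.88, SE 0.47), and Sfrp4 at 565 and 749 against 120, 122 and 110 (2.46, SE 0.20). Sfrp1 was lower at 1789 and 2388 against 6044, 6060 and 6435 (-1.58, SE 0.12), and Wif1 at 607 and 541 against 1377, 1242 and 1298 (-1.19, SE 0.11). Sostdc1 was at 0 in lung against 114, 154 and 124, at least 51.55-fold lower. Antagonists of the same pathway thus differed in opposite directions. With any 1 library left out, 3 or 4 stayed higher and 5 or 6 lower.

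BMP and activin genes showed 14 higher and 11 lower of 40 (all genes: 13.3% and 22.8%). Follistatin (Fst), which traps activins, was at 1678 and 2667 in lung and 109, 109 and 119 in intestine (4.22, SE 0.22; limma adjusted p = 1.22e-05). Bmp3 was at 2718 and 1907 against 145, 150 and 226 (3.74, SE 0.25), and Bmp5 at 1376 and 979 against 285, 354 and 300 (1.89, SE 0.19). Other ligands were lower: Bmp2 was at 539 and 569 against 2590, 2538 and 2713 (-2.24, SE 0.09), Bmp6 at 422 and 478 against 2037, 1820 and 1899 (-2.09, SE 0.11), and Bmp7 at 42 and 49 against 518, 598 and 525 (-3.56, SE 0.20). Bmp4 was not called (-0.31, interval -0.73 to 0.10). Grem1, gremlin 1, which blocks BMPs, was lower at 554 and 1056 against 1947, 2228 and 2256 (-1.48, SE 0.25).

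In the TGF-beta list 8 of 22 were higher and 2 lower, with 5 higher without any 1 intestine library. Its lower calls were 6 without lung 1 and 1 without any 1 intestine library or with the deposited scaling undone. Ltbp2, a microfibril protein of the latent TGF-beta binding family (chromosome 12, 84829986 to 84923306), was at 5938 and 6053 in lung and 531, 481 and 547 in intestine (3.53, SE 0.10; limma adjusted p = 1.07e-06). Among growth factors 13 of 50 were higher and 14 lower (9 without intestine 2). Fgf18 was at 1142 and 1424 against 64, 76 and 78 (4.12, SE 0.20), Fgf7, which acts on epithelium, at 959 and 954 against 266, 274 and 248 (1.86, SE 0.14), and Fgf10, the bud-inducing ligand of the lung, at 198 and 129 against 50, 31 and 70 (1.72, SE 0.40). Pdgfra, read in fibroblasts and gut interstitial cells, was at 1203 and 1244 against 5947, 6921 and 6428 (-2.39, SE 0.08), while the mural receptor Pdgfrb overlapped at 6911 and 5414 against 6010, 5557 and 5337 (0.12, interval -0.13 to 0.37).

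NOTCH pathway genes were lower in 11 of 21, where 22.8% of all genes tested were, and higher in 3, which is close to the 13.3% of all genes. The ligand Jag1 was at 841 and 610 in lung and 2672, 2895 and 2388 in intestine (-1.88, SE 0.15; limma adjusted p = 9.94e-05), and Jag2 at 93 and 73 against 883, 582 and 710 (-3.10, SE 0.23). Dll1 (-2.18, SE 0.17) and Dll4 (-1.62, SE 0.16) were lower as well. The mural receptor Notch3 differed by little, at 3707 and 3932 against 4830, 4612 and 4636 (-0.30, SE 0.06). Heyl, a NOTCH target of mural cells, was higher at 5691 and 5257 against 3458, 3282 and 3521 (0.68, SE 0.07). Ligands of this pathway are also made by endothelium and epithelium. Summed markers of blood endothelium and general epithelium were lower in lung, and those of lung epithelium were higher. The part of these cells in the NOTCH values was not tested. The axon guidance list had 10 higher and 11 lower of 32, and the retinoid list 3 (5 with quantile normalization) and 8 of 19. Axon guidance calls were 6 higher without intestine 1 or 2 and 5 without intestine 3, and 7 lower without intestine 2 or 3 or lung 2.

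**Figure D4:**
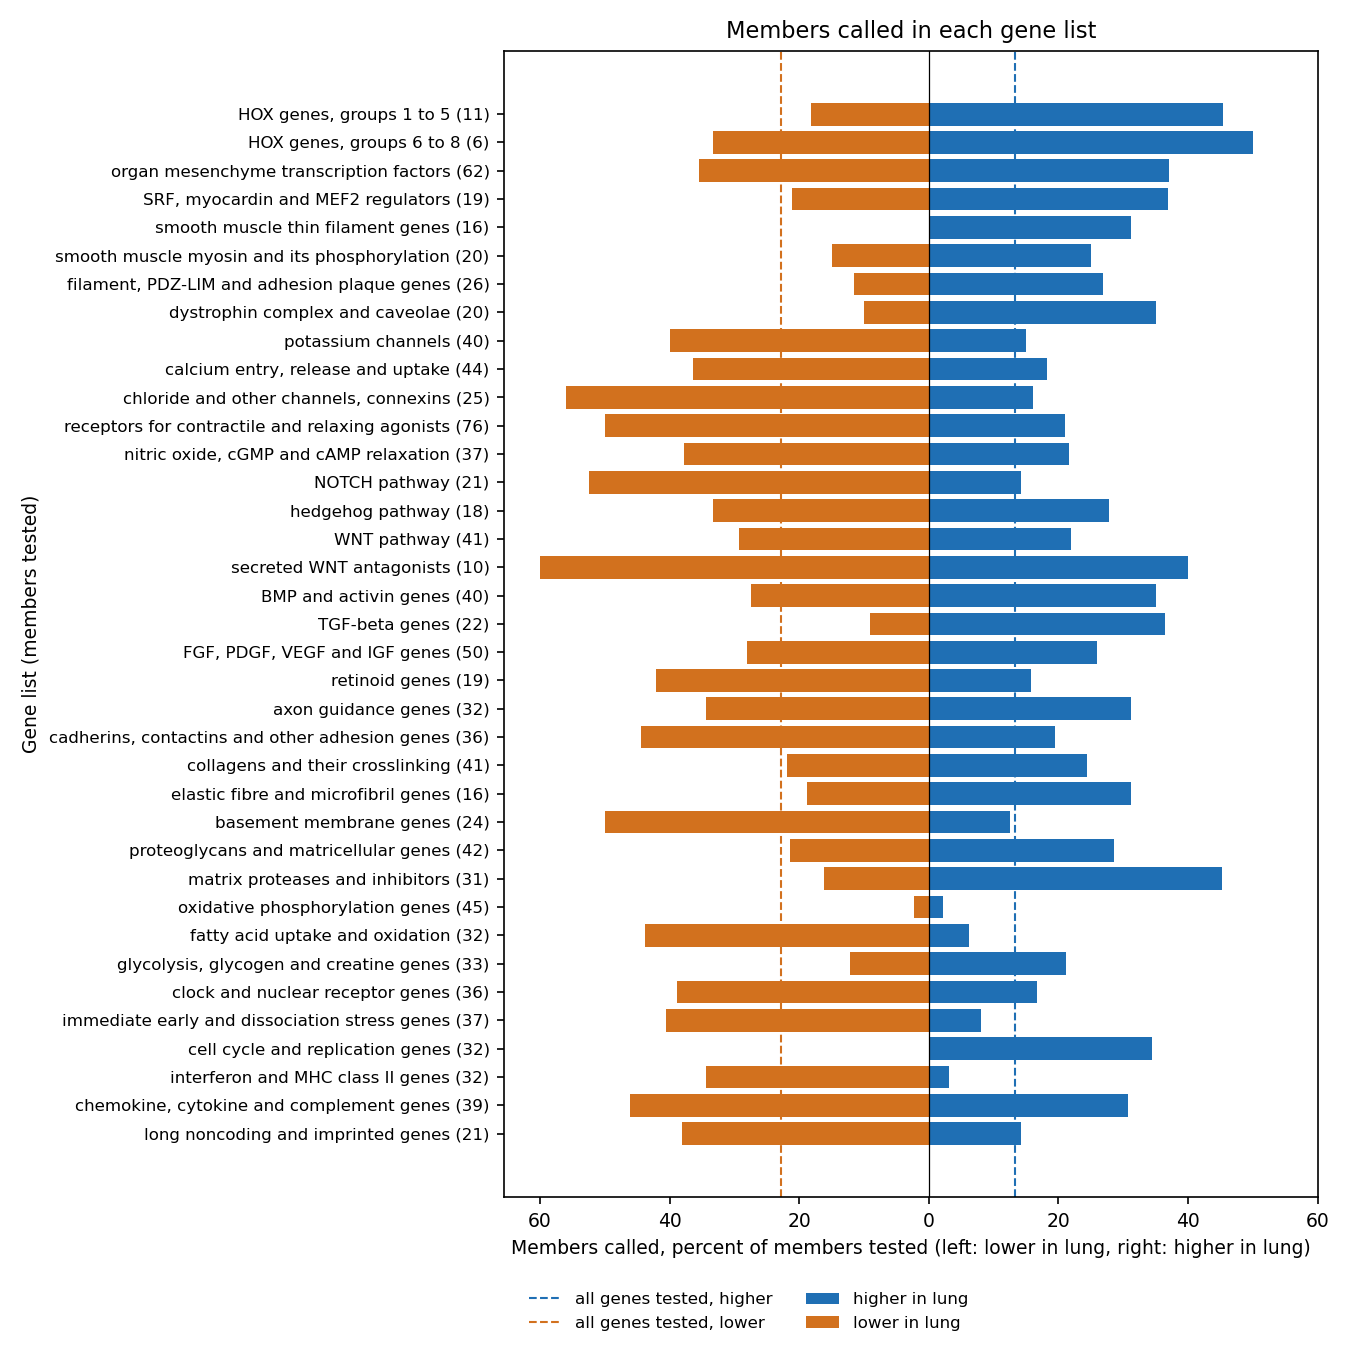
For each list with at least 6 members tested (number in brackets), bars give the percent of members tested that were called higher in lung (right, blue) or lower (left, orange). Dashed lines mark the same over all genes tested, 13.3% higher and 22.8% lower: thin filament and cell cycle lists have no lower member, oxidative phosphorylation has 1 call on each side, and channel, receptor and NOTCH lists extend to the left.

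Collagen genes counted 10 higher (6 without any 1 intestine library) and 9 lower of 41, the lower share being close to the 22.8% of all genes. Among them the fibrillar Col1a1 overlapped at 8307 and 9311 against 8933, 8557 and 9440 (-0.03, interval -0.19 to 0.13). Loxl3, which crosslinks collagen, was at 2427 and 3019 in lung and 758, 918 and 1041 in intestine (1.59, SE 0.16; limma adjusted p = 0.000277). Col14a1 was lower at 3756 and 3169 against 6462, 7377 and 7242 (-1.02, SE 0.09). Basement membrane genes were lower in 12 of 24 and higher in 3 (5 with quantile normalization). Lamb1, a laminin chain, was at 2258 and 1991 against 5081, 6027 and 5832 (-1.41, SE 0.10), and Lama2, the muscle laminin chain, at 1015 and 826 against 1558, 2435 and 1876 (-1.07, SE 0.19). Npnt, a ligand of integrin alpha 8, was higher at 5548 and 4014 against 1206, 1376 and 1334 (1.86, SE 0.14), as was Egfem1, at 459 and 514 against 0 in each intestine library, at least 177.1-fold. Lists of elastic fibre genes (5 higher and 3 lower of 16, with 3 higher without lung 2 or any 1 intestine library) and adhesion genes (7 and 16 of 36) had calls in both directions, and 3 of 16 lower is again close to the share of all genes.

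Matricellular genes, secreted proteins that act on cells more than they build matrix, included several large differences. Osteopontin (Spp1) was at 2125 and 2288 in lung and 111, 139 and 188 in intestine (3.94, SE 0.23; limma adjusted p = 1.85e-05). Of the CCN family, Ccn5 was at 2793 and 3017 against 383, 422 and 557 (2.69, SE 0.17), Ccn4 at 2260 and 2968 against 562, 515 and 675 (2.16, SE 0.17), and Ccn3 at 3769 and 3676 against 935, 622 and 576 (2.42, SE 0.20). Matn2 was lower at 1375 and 1357 against 4226, 4415 and 4399 (-1.67, SE 0.07), and so was Thbs2 (-1.26, SE 0.16). The list held 12 higher, where 13.3% of all genes were, and 9 lower of 42, which is close to the 22.8% of all genes. Matrix proteases and their inhibitors were higher in 14 of 31 and lower in 5 (3 without intestine 3), with a median of 0.46. Adam33, a gene linked to asthma in human studies, was at 3953 and 2758 against 702, 629 and 641 (2.33, SE 0.16). Mmp3 was at 1838 and 2331 against 402, 493 and 462 (2.20, SE 0.15), Mmp9 at 1043 and 1642 against 234, 206 and 195 (2.63, SE 0.22), and the inhibitor Timp1 at 1130 and 1294 against 197, 263 and 280 (2.31, SE 0.19).

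Few genes of the respiratory chain were called. Only 1 of 45 oxidative phosphorylation genes was higher (Ndufb8) and 1 lower (Sdha), where 13.3% and 22.8% of all genes were, and neither held its call with lung 2 left out (limma adjusted p = 0.0625 and 0.119) or without any 1 intestine library. Without lung 2, 3 others of the list were lower, and Ndufb8 was lost without lung 1 too (0.0612). In the fatty acid list 14 of 32 were lower and 2 higher, beside the same 22.8% and 13.3% over all genes (1 without intestine 1 or 2), with 9 lower without intestine 1 or 2 and 8 without intestine 3. The coactivator Ppargc1b was at 182 and 177 in lung and 938, 915 and 882 in intestine (-2.34, SE 0.13; limma adjusted p = 1.66e-05), and the mitochondrial carrier Ucp2 at 628 and 1076 against 2460, 2389 and 2612 (-1.59, SE 0.21). Glycolysis, glycogen and creatine genes counted 7 higher and 4 lower of 33 (4 and 7 without lung 1, and 4 higher without intestine 2), with the glucose carrier Slc2a1 at 1294 and 1264 against 583, 608 and 641 (1.07, SE 0.11). Of 36 clock and nuclear receptor genes 14 were lower and 6 higher. Nr4a2, an inducible orphan receptor, was at 374 and 353 against 4122, 3974 and 3916 (-3.46, SE 0.09; adjusted p = 9.99e-07), and the vitamin D receptor Vdr, which gut epithelium reads strongly, at 54 and 80 against 2145, 2703 and 2311 (-5.15, SE 0.20).

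Of 37 genes induced early by stimuli or by the stress of dissociation, 15 were lower in lung and 3 higher (all genes: 22.8% and 13.3%). Fosb was at 692 and 1047 in lung and 5510, 5323 and 5814 in intestine (-2.70, SE 0.16; limma adjusted p = 2.09e-05), and Atf3 at 934 and 717 against 3408, 3199 and 3516 (-2.04, SE 0.12). The small heat shock genes of muscle went the other way, with Hspb6, which relaxes smooth muscle when phosphorylated, at 2048 and 2099 against 1004, 742 and 798 (1.30, SE 0.14). These genes respond to tissue digestion, and its part was not tested. Of 32 cell cycle genes 11 were higher and 0 lower (all genes: 13.3% and 22.8%), with a median of 0.60. Rrm2, a subunit of the enzyme that makes DNA precursors, was at 1053 and 1876 against 378, 343 and 419 (1.89, SE 0.24; adjusted p = 0.000932). Lung 2 exceeded lung 1 in 31 of the 32. The higher calls were 17 without lung 1 or with quantile normalization, 5 without lung 2 (with 1 lower) and 4 without any 1 intestine library.

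The label of the sorted cells was checked against markers of other cell types, summed in ppm of each library. Muscle genes were abundant in all 5 libraries, as were those known from vascular muscle and pericytes, although the label says non-vascular: 5175 and 4919 ppm in lung and 5243 to 5660 in intestine, with 3 of 27 higher (5 without intestine 1) and 8 lower. The higher calls were 7 with equal totals or quantile normalization and 8 with the deposited scaling undone, so their balance with the lower calls rests on the scaling. Airway smooth muscle and lung mesenchyme genes summed to 4183 and 3668 ppm in lung and 1904 to 2020 in intestine, with 8 of 18 higher and 2 lower. The defining gut epithelium genes summed to 76.82 and 71.49 ppm in lung and 4073 to 4353 in intestine, and 35 of 39 were lower and 0 higher (1 without lung 2), with a median of -8.47 (-7.95 with genes at 0 set to their bound). Enteric neuron genes (144.6 and 213 ppm against 894 to 951.1; 20 of 24 lower), glia genes (301.6 and 329.3 against 573.3 to 619; 13 of 16 lower) and lymphatic endothelium genes (409.9 and 404.5 against 1756 to 2089; 9 of 10 lower) were lower without overlap. Blood endothelium genes, at 1638 and 1891 ppm against 2732 to 2893, were lower in 17 of 22.

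Among the largest differences were genes known from cells other than muscle. Epcam, the general epithelial adhesion gene, was at 32 and 56 in lung and 2541, 2423 and 2658 in intestine (-5.87, SE 0.23; limma adjusted p = 4.15e-06). Cps1, the urea cycle enzyme of liver and gut epithelium, was at 0 in lung against 5144, 5724 and 5149, at least 2106.1-fold lower. Adamdec1, a metalloprotease of gut macrophages and stroma, was at 0 against 4261, 4104 and 4497, at least 1691.3-fold lower. Outside the marker lists the largest negative differences still included Hnf4a, Gcnt3, Cdhr2, Pigr and Myo1a, all known from gut epithelium. The enteric transmitter gene Vip was at 0 and 1 against 1436, 1604 and 1744 (-10.14, SE 0.34), and the glial factor Sox10 at 0 against 190, 200 and 196, at least 77.05-fold lower. Reln, read in lymphatic endothelium, was at 1 and 0 against 1568, 2433 and 2182 (-10.49, SE 0.37). The part of these cells in any single lower call was not tested.

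Lung libraries also held transcripts known from other cells, but sums of unlike lists cannot rank the amounts of cells. Lung epithelium genes summed to 568.2 and 538.9 ppm in lung and 375.5 to 411.6 in intestine, with 13 of 21 higher and 3 lower. That list shares Lyz1 with the gut epithelium list and Pdpn with the lymphatic list, and both enter the intestine sums. Surfactant gene Sftpc was at 1234 and 1272 in lung and 2, 1 and 1 in intestine (9.10, SE 0.38; limma adjusted p = 4.86e-06), and Sftpa1 at 1386 and 1180 against 0, 1 and 0 (9.99, SE 0.47). Both are made by alveolar type 2 cells. The club cell gene Scgb1a1 was at 470 and 291 against 4, 9 and 5 (5.79, SE 0.44). General epithelium genes nevertheless stayed low in lung, at 258.4 and 324.8 ppm against 2496 to 2597. Leukocyte genes were lower in 16 of 34 (9 without intestine 2 or 3, and 8 with quantile normalization) and higher in 5, the latter including Chil3, a marker of alveolar macrophages, at 187 and 299 against 0 in each intestine library, at least 88.47-fold higher, and the lysozyme gene Lyz2 (1.54, SE 0.12). Immunoglobulin genes, the product of plasma cells, were lower in 82 of 86 tested, higher in 1 and summed to 144.1 and 258 ppm in lung and 1197 to 1379 in intestine. Fibroblast genes were at 5933 and 6525 ppm in lung and 7046 to 7610 in intestine, with 13 of 26 lower and 3 higher (all genes: 22.8% and 13.3%). Lower calls were 7 without intestine 2 and 8 without intestine 1 or 3.

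**Figure D5:**
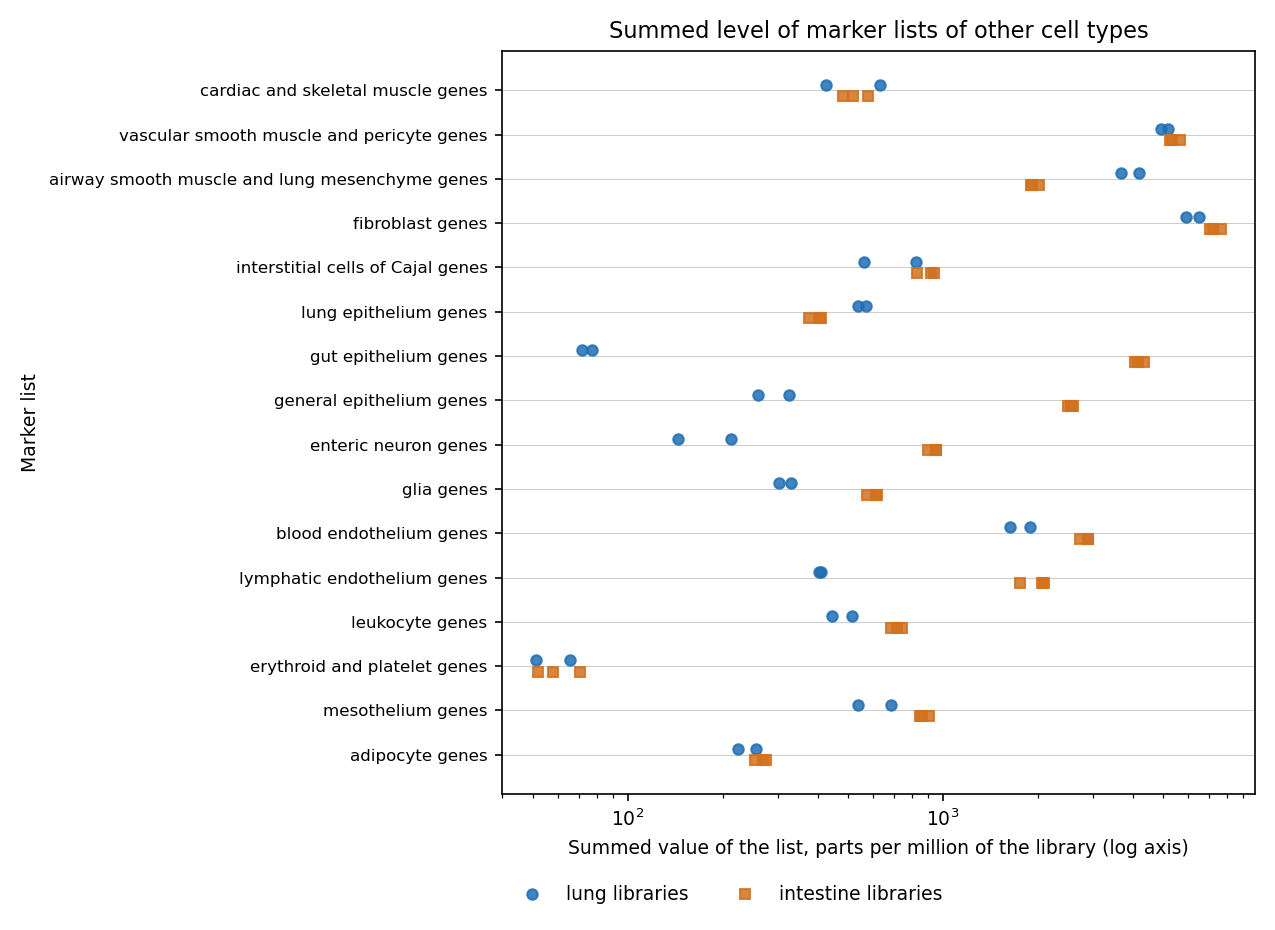
Summed values of marker lists of other cell types in each lung library (circles) and intestine library (squares), in ppm of all values of the library, on a log axis. Gut epithelium, general epithelium, enteric neuron and lymphatic lists lie far lower in lung, and the airway muscle and lung epithelium lists lie higher.

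Beyond these lists, the largest positive differences were spread over genes of varied function. Itih4, a serum protease inhibitor family gene (chromosome 14, 30608433 to 30624310), was at 5006 and 4563 in lung and 81, 4 and 32 in intestine (7.65, SE 1.01; limma adjusted p = 0.00108). Pnmt, the enzyme that turns noradrenaline into adrenaline, was at 326 and 185 against 6, 0 and 0 (7.01, SE 0.91). Gria1, a subunit of AMPA glutamate receptors, was at 1139 and 461 against 9, 25 and 3 (6.16, SE 0.78). Scx, the tendon transcription factor scleraxis, was at 1130 and 1372 against 30, 43 and 57 (4.86, SE 0.30), and Lrrc15, a surface protein of matrix-producing fibroblasts, at 439 and 521 against 7, 53 and 7 (4.99, SE 0.82). Mylk2, the skeletal myosin light chain kinase, was at 431 and 288 against 7, 15 and 11 (4.94, SE 0.41), in the same direction as Mylk4. The rule that named these 6 genes took only genes whose lung and intestine libraries did not overlap.

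The smooth muscle noncoding RNA gene Carmn was at 2299 and 1489 in lung and 930, 702 and 574 in intestine (1.36, SE 0.25; limma adjusted p = 0.00467). Among 14967 protein-coding genes tested 14% were higher and 23.5% lower, and among 1683 long noncoding RNA genes 10.7% and 16.8%. In the list of long noncoding and imprinted genes 3 of 21 were higher, close to the 13.3% of all genes, and 8 lower (4 without intestine 2 or 3), where 22.8% of all genes were. With quantile normalization these were 6 and 5. Interferon and MHC class II genes were lower in 11 of 32 and higher in 1 (0 without any 1 intestine library), and chemokine, cytokine and complement genes lower in 18 of 39 and higher in 12. Complement C3 was at 3380 and 3987 against 7607, 7952 and 8452 (-1.12, SE 0.08), and the atypical chemokine receptor Ackr4 at 25 and 31 against 1486, 1623 and 1680 (-5.79, SE 0.17). Of the chemokines, Cxcl14 was at 961 and 1883 against 194, 234 and 245 (2.59, SE 0.28).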

How the data were processed

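RNA of sorted cells was prepared with the SMART-Seq v4 kit from at most 10 ng of total RNA, per the labels' protocols; that kit does not mark strand, so overlapping genes cannot be told apart. Per the submitters' processing notes, build mm39 was used, and tools listed without roles are featureCounts 2.0.4, STAR 2.7.10a, DESeq2 1.36.0, Trimmomatic 0.39 and Picard 3.0.0. The authors' deposited values were treated as a score: whole numbers whose spacing is that of read counts rescaled within each library, then rounded. The value of 1 read, estimated from that spacing, gave reconstructed reads (depth, and a floor of 3 reads for genes at 0, which covers counting error only).

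Genes at 10 or more in at least 2 of the 5 libraries were tested with limma 3.58.1 (R 4.3.3) with an intensity trend on log2(value + 1), without covariates, which understates the change of low genes. Intervals are at 95%. Exon lengths are from GENCODE M21, and promoters from RefSeq (GRCm38.p6). The members and the 55 gene lists were chosen with earlier results of these data known; 86 genes are in more than 1 list. Genes were named by a rule. It took Acta2, Cspg4 and Myh11. Among called genes without overlap between the tissues, it took the 12 largest changes per direction at a mean of 200 or more. It also took 12 more of that kind outside the marker lists and up to 4 called members per list and direction by p. Up to 4 genes per muscle list with a 95% interval within 0.5 of 0 were added. Not all of these are described, and some items are not reported here. Other genes (such as Rergl, Myl9, Myocd, Actg2, Foxf1, Gata5, Hand1, Nkx3-2, Chrm2, Vipr2, Kcnma1, Ptch1, Rspo2, Bmp4, Fgf10, Pdgfrb and Epcam) and the 4 promoters were added after their values were seen. Alternatives changed the samples, pseudocount, filter, scaling, variance model, test and replicates.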

Additional observations from a re-analysis of the deposited data

How the results depend on the processing

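None of the 6310 calls became a call in the opposite direction under any alternative that was run. Genes that lost their call, or that a stricter filter left out, were not checked for sign in this count. Higher and lower counts of 2326 and 3984 moved to 383 and 2001 when tested against a log2 difference of 1, where higher genes made up 16.1% of calls. Quantile normalization gave 4150 higher genes and 57% of calls. Undoing the deposited scaling, chosen after seeing the data, leaves depth uncorrected and gave 3411 and 3372 and 50.3%. Equal totals gave 2722 and 3794 and 41.8%. Without 1 library at a time, higher genes numbered 1301 to 2865, lower genes 2921 to 4691, and the share of higher calls was 30.8% to 37.9%. Without intestine 1, 2 or 3 the higher genes numbered 1473, 1301 and 1402, and the cause was not tested. Deviations from the tissue mean correlated at 0.07 for lung 1 with intestine 1 and at -0.01 for lung 2 with intestine 2. With 2 lung libraries, the deviations of lung 2 mirror those of lung 1, so these values cannot show whether the replicate numbers pair the libraries. With the replicate number as a block, 1808 genes were higher and 3802 lower. Of 368 called genes that the rule named, 149 lost their call against a difference of 1, 35 without the intensity trend, 18 with the replicate block and 14 to 33 without 1 library. Among list counts, those without the intensity trend were 3 higher for SRF regulators (7 with it), 3 for TGF-beta (8), 4 for the cell cycle (11), and 8 lower each for early stress genes (15) and fibroblasts (13). With 2 against 3 libraries an exact rank test cannot go below 0.2 (two-sided), so single values rest on the spread pooled across genes. Depth limits genes below the floor of 3 reads, 2.47 to 2.87 in normalized value. At the high end, no tested gene with a known exon length had a tissue mean above 2.44 reconstructed reads per exon base. The part of such a limit in values and sums of abundant genes was not tested.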
